A study of Mus musculus with 24 samples.

Results

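The genes described here are 10 mouse genes for matrix proteases and their inhibitors. The proteases are the matrix metalloproteinases Mmp2, Mmp3 and Mmp14, the aggrecanases Adamts1, Adamts4 and Adamts5, and the secreted serine protease Htra1. The inhibitors are the tissue inhibitors of metalloproteinases Timp1, Timp2 and Timp3. All 10 are chosen members of these families, not the whole of them. They were taken by symbol from a gene count matrix, in which each symbol was found once among 52178 genes, and all 10 passed the filter on low counts together with 21283 genes in all. The matrix covered 24 RNA-seq libraries in 6 groups of 4, from 2 kinds of cartilage explant of C57/BL6 mice (C57/BL6J in the study's methods) without any engineered allele. Hip caps were the femoral head cartilage of 4-week-old males, with the 2 caps of a mouse pooled, and metatarsals were the cartilage rudiments of embryos at embryonic day 15, with 6 rudiments pooled. After 24 h of culture both were kept for 1 h at 0 MPa as the control, at 5 MPa as a physiological or at 50 MPa as an injurious hydrostatic pressure, and RNA was taken 24 h later.

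Cartilage is a meshwork of type II collagen filled with the proteoglycan aggrecan. Collagenases and stromelysins of the MMP family cut collagens and other matrix proteins, the membrane-bound MMP14 also activates the gelatinase MMP2, and ADAMTS4 and ADAMTS5 are the main enzymes that cleave the aggrecan core protein. TIMPs bind the active sites of these metalloproteinases, TIMP3 is the member of the family that blocks the aggrecanases well, and an excess of protease over inhibitor is a feature of osteoarthritic cartilage.

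Tissue, age, culture medium, anatomical site and, for the hip caps, sex differ together between the 2 explants, so that a difference between hip caps and metatarsals cannot be assigned to any of them, and they cannot be told apart. The same holds in these bulk samples for fewer cells of a type and less RNA per cell. Hip cap replicates came from separate mice and each metatarsal sample was a pool, so p-values measure the spread between these samples.

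The 10 genes lie on separate chromosomes, here given on the GRCm38 build, except for a pair of neighbours. Adamts1 (chromosome 16, 85793827 to 85803113, minus strand) and Adamts5 (chromosome 16, 85856173 to 85901828, minus strand) lie next to each other. Mmp3 lies on the plus strand of chromosome 9 at 7445822 to 7455975, next to the other stromelysin and collagenase genes. Mmp2 lies at 92827291 to 92853420 on chromosome 8, Mmp14 at 54431612 to 54445364 on chromosome 14, Adamts4 at 171250421 to 171260637 on chromosome 1, and Htra1 at 130936111 to 130985660 on chromosome 7, all on the plus strand. Of the inhibitors, Timp1 lies at 20870166 to 20874735 on chromosome X, Timp2 at 118301069 to 118355740 on the minus strand of chromosome 11, and Timp3 at 86300372 to 86349506 on chromosome 10. Timp3 shares the most sequence with other genes, as 21.88% of its words of 31 bases also occur elsewhere, mostly with Syn3, which runs over 1733 of its exonic bases on the opposite strand. Mmp3 shares 14.57% of such words, mostly with Mmp10, whereas none of the other members shares more than 3.31%.

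The promoters of Mmp3 and Timp1 are shown because these were the members that stood highest in hip caps over metatarsals. A promoter here runs from 250 bases before to 50 bases after the start site, as given by RefSeq on GRCm38.p6, where 7 of the 10 members had an entry and Mmp2, Adamts4 and Adamts5 had none. Capitals mark the sequence TGAGTCA, the classical binding motif of AP-1, searched on both strands.

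Mmp3, chr9:7445572-7445871, plus strand: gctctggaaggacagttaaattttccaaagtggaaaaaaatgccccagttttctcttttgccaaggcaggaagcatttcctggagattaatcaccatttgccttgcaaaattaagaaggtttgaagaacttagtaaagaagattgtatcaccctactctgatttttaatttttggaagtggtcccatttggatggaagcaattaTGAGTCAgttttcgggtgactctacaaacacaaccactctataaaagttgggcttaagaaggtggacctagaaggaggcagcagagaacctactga

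Timp1, chrX:20869916-20870215, plus strand: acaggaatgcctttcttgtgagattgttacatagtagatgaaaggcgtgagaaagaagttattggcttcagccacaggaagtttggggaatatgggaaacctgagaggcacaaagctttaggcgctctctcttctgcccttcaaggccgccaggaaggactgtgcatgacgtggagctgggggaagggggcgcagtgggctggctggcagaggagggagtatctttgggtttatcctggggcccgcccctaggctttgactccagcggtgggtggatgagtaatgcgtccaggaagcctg

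Mmp3 was the only member of the 7 with TGAGTCA in this window, with its first base 46 bases before the start site, and 5.2% of 32817 mouse promoters of the same length hold it. The TATA sequence TATAAA, also searched on both strands, was found in 13.6% of those promoters and, among the 7, in Mmp3 and Adamts1. The windows of the other members do not hold these letters, which says nothing of the factors that bind there.

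Total counts ranged from 4185557 to 25104484 over the 22 libraries compared, and the smallest count behind any member was 22 (Adamts4). The study set aside hip cap control replicate 4 (HC4) and hip cap 50 MPa replicate 2 (H502), which stood apart, so that hip caps gave 3, 4 and 3 libraries at 0, 5 and 50 MPa and metatarsals 4 at each pressure. All values below are over these 22 unless said otherwise, in CPM, read counts relative to the library total after TMM scaling, and tests are edgeR's quasi-likelihood test with terms for sequencing run and library type and Benjamini-Hochberg adjustment over 21283 genes, with a threshold of 0.05. The 10 chondrocyte markers (Col2a1, Acan and others) had a summed level of 21098 to 75178 CPM in the hip caps used and of 1654 to 4369 CPM in metatarsals, where 7 skeletal muscle markers reached 433 to 2499 CPM against 16.6 to 48.8 CPM in hip caps. The sum of 8 perichondrium and fibroblast markers was 5969 to 9508 CPM in metatarsals. In the hip caps used it was 2516 to 10426 CPM, with 2516 to 3700 CPM in the controls. The metatarsal label of cartilage is thus met by a low chondrocyte signal beside fibroblast and muscle transcripts. The part of any of these in the differences below was not tested.

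All 10 members were detected in both hip caps and metatarsals, but their order by level differed. Compared per transcript length, as CPM per kilobase, Mmp3 (stromelysin 1) led in hip caps with 241.6 ± 123.2 (SD, n = 10), followed by Timp3 with 98.3 ± 22.2 and Timp1 with 74.1 ± 29.7. Means and SDs in this paragraph pool the 3 pressures of a tissue. By pressure, Mmp3 had 154.4 ± 57.6 in hip cap controls, 256.1 ± 46.1 at 5 MPa and 309.3 ± 207.6 at 50 MPa, where Timp3 had 105.8 ± 43.1. Htra1 (47.3 ± 11.7), Timp2 (45.6 ± 11.3), Mmp14 (36.4 ± 16.6) and Mmp2 (30.9 ± 11.5) formed a middle group whose neighbours lay within 1 SD of each other. In metatarsals the order began with Mmp2 at 119.7 ± 14.0 (SD, n = 12) and Mmp14 at 107.5 ± 13.2 CPM per kilobase, again within 1 SD, and went on with Timp2 at 59.5 ± 8.4, Timp3 at 25.2 ± 5.1 and Htra1 at 21.9 ± 2.7, while Mmp3 had 9.85 ± 5.50 and Timp1 8.37 ± 2.50. The 3 aggrecanases were the lowest or among the lowest in both tissues, with 4.03 ± 0.94 (Adamts1), 3.66 ± 1.45 (Adamts5) and 2.66 ± 1.42 (Adamts4) in hip caps and 9.70 ± 0.98, 3.70 ± 0.35 and 3.43 ± 0.55 in metatarsals.

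As shares of the summed per-length level of the 10 genes, Mmp3 took 34.0 ± 4.5% in hip cap controls (n = 3) and 3.39 ± 2.23% in metatarsal controls (n = 4). Mmp2 took 5.34 ± 0.37% and 30.7 ± 0.6%, and Mmp14 4.85 ± 1.95% and 30.3 ± 1.5%. Timp3 took 22.3 ± 3.1% in hip cap controls and 7.29 ± 2.08% in metatarsal controls. The summed level of the 3 TIMPs, divided by that of the 6 metalloproteinases, was 0.918 ± 0.133 in hip cap controls, 0.655 ± 0.091 (n = 4) at 5 MPa and 0.783 ± 0.551 (n = 3) at 50 MPa, where single libraries lay between 0.362 and 1.41. In metatarsals it was 0.364 ± 0.033, 0.373 ± 0.014 and 0.366 ± 0.016 (n = 4 each). The libraries of the hip caps at 5 MPa (0.533 to 0.747) lay below those of the 3 controls used (0.766 at the lowest). The 50 MPa libraries spanned both. HC4 was left out of this ratio and stood high on both of its sides, with 743.8 CPM of Mmp3, 310.9 CPM of Mmp14 and 186.3 CPM of Timp1. The order is thus shown only for the controls used. By the reading of the runs given below, these controls and the 5 MPa libraries also differed in run. The metatarsal groups differed by less than their spread. These ratios were not tested, and they cover the members alone. They leave out Mmp13 and Mmp9, with means of 459.1 and 215.6 CPM in hip cap controls. In metatarsal controls these 2 had 18.5 and 21.2 CPM, so the ratios do not give the balance over all MMPs.

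**Figure D1:**
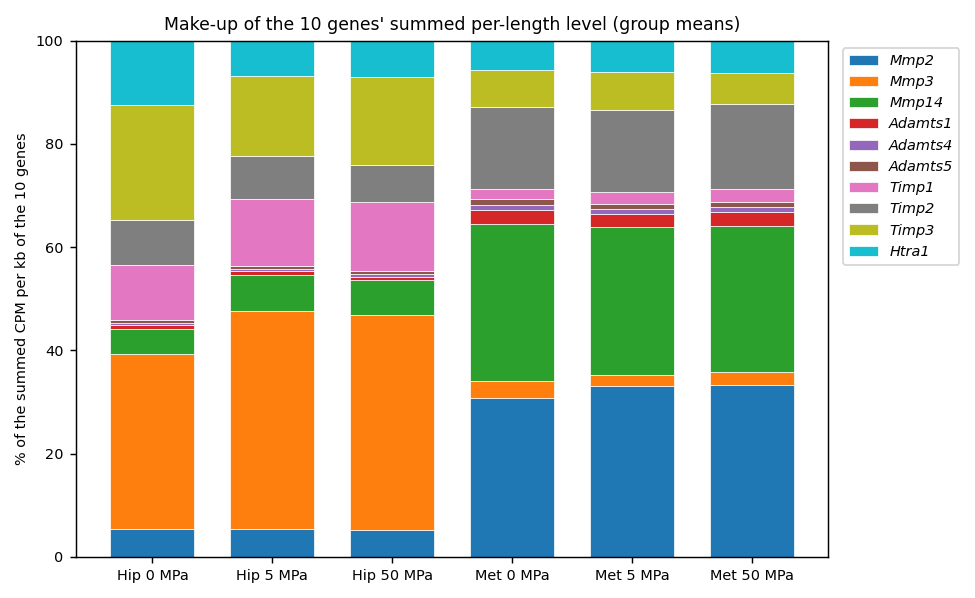
Stacked bars give, for each of the 6 groups, the mean share (%) of each gene in the summed CPM per kilobase of the 10 genes. Mmp3 and Timp3 fill over 50% of the hip cap control bar (34.0% and 22.3%), while Mmp2 and Mmp14 do so in metatarsals (30.7% and 30.3% in the controls).

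Between the unpressurised tissues, 8 of the 10 members passed the test, against 29.9% of all genes tested, and 4 were higher (14.1% of all genes) and 4 lower (15.9%) in hip caps. Under 5 MPa 7 members passed it, against 37.9% of all genes, with 4 higher (18.8%) and 3 lower (19.1%). Under 50 MPa it was 7, against 19.7%, with 4 higher (10.1%) and 3 lower (9.58%). The libraries of the tissues did not overlap for 9, 7 and 8 members at 0, 5 and 50 MPa, against 42.4%, 40.8% and 39.9% of all genes. The 4 members higher in hip caps were Mmp3, Timp1, Timp3 and Htra1 at each pressure, and Mmp2, Mmp14 and Adamts1 were lower at each. The median log2 fold change of the members was -0.61, -0.04 and 0.22 at 0, 5 and 50 MPa, beside -0.08, -0.08 and -0.01 over all genes.

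Mmp3 showed the widest gap of the members. Its levels in hip caps were 240.2, 198.7 and 395.4 CPM in controls, 542.7, 355.7, 437.3 and 509.6 CPM at 5 MPa and 511.8, 951.6 and 208.0 CPM at 50 MPa. In metatarsals they were 7.46, 20.4, 45.6 and 17.1 CPM in controls, 15.8, 12.4, 10.1 and 16.5 CPM at 5 MPa and 12.6, 15.2, 25.2 and 14.6 CPM at 50 MPa. The lowest hip cap library thus lay above every metatarsal library at each pressure. On the log2 scale the difference was 4.56 ± 0.65 (SE, adjusted p = 4.93e-05) at 0 MPa, 5.07 ± 0.45 (adjusted p = 9.30e-08) at 5 MPa and 5.42 ± 0.70 (adjusted p = 2.40e-05) at 50 MPa. Mmp10, which shares words with Mmp3, ranged from 0.27 to 3.40 CPM in hip caps.

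Mmp2 (gelatinase A) and Mmp14, which activates it, went the other way. Mmp2 had 64.4, 61.6 and 93.5 CPM in hip cap controls and 295.1, 305.2, 367.3 and 393.2 CPM in metatarsal controls, and the groups did not overlap. Its log2 difference was -2.18 ± 0.30 at 0 MPa (adjusted p = 1.35e-05), -1.85 ± 0.23 at 5 MPa and -2.05 ± 0.32 at 50 MPa. Mmp14 had 59.2, 80.2 and 58.6 CPM in hip cap controls against 297.2, 316.1, 376.6 and 428.4 CPM in metatarsal controls. Its log2 difference was -2.39 ± 0.32 at 0 MPa (adjusted p = 7.66e-06), -1.27 ± 0.23 at 5 MPa and -1.33 ± 0.32 at 50 MPa. At 50 MPa the call of Mmp14 was lost without M504 (metatarsal 50 MPa replicate 4; -0.74, adjusted p = 0.528) and with all 24 libraries (-1.18, adjusted p = 0.132).

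Among the aggrecanases Adamts1 alone passed the test between the tissues at all 3 pressures. Adamts1, which cleaves aggrecan and versican, had 19.6, 12.1 and 20.4 CPM in hip cap controls and 44.6, 57.8, 41.1 and 46.0 CPM in metatarsal controls. The log2 difference was -1.44 ± 0.24 at 0 MPa (adjusted p = 1.28e-04), -1.22 ± 0.17 at 5 MPa and -1.24 ± 0.25 at 50 MPa. At 50 MPa the call of Adamts1 was lost without M504 (-1.45, adjusted p = 0.0882). Adamts4 was lower in hip cap controls (5.98, 6.36 and 5.43 CPM) than in metatarsal controls (12.1, 15.9, 15.1 and 19.8 CPM), by -1.38 ± 0.44 on the log2 scale (adjusted p = 0.0222). That call was lost without any of HC3, MC1 or M504, with log2 differences over all left-out libraries of -1.96 to -0.96. At 5 and 50 MPa Adamts4 differed by -0.16 (95% interval -0.74 to 0.43) and 0.00 (-0.87 to 0.87). Adamts5 did not pass the test at any pressure, with -0.64 (-1.20 to -0.08, adjusted p = 0.0798) at 0 MPa, 0.08 (-0.32 to 0.47) at 5 MPa and 0.45 (-0.18 to 1.07) at 50 MPa.

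The 3 inhibitors did not move as a block. Timp1 had 41.3, 34.2 and 50.9 CPM in hip cap controls and 5.17, 7.44, 6.80 and 6.41 CPM in metatarsal controls. The difference was 2.44 ± 0.41 (adjusted p = 1.43e-04) at 0 MPa, 3.35 ± 0.27 (adjusted p = 7.28e-09) at 5 MPa and 2.74 ± 0.40 (adjusted p = 5.70e-05) at 50 MPa on the log2 scale. Timp3 had between 397.6 and 496.8 CPM in hip cap controls and between 90.8 and 135.8 CPM in metatarsal controls, a log2 difference of 1.96 ± 0.31 (adjusted p = 5.55e-05), and 1.79 ± 0.22 and 2.26 ± 0.35 under 5 and 50 MPa. At 50 MPa the call of Timp3 was lost without M504 (1.66, adjusted p = 0.0927). Timp2, which also takes part in the activation of MMP2 by MMP14, was the closest of the 3 between the tissues, with log2 differences of -0.58 (95% interval -1.06 to -0.09, adjusted p = 0.066), -0.21 (-0.56 to 0.14) and -0.68 (-1.19 to -0.17, adjusted p = 0.0541). At 50 MPa Timp2 sat at the threshold: it passed under DESeq2 (adjusted p = 0.0235) and without any of 12 single libraries.

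Htra1, a protease that cleaves fibronectin, small proteoglycans and aggrecan, had 124.7, 72.4 and 147.9 CPM in hip cap controls and 41.0, 33.6, 39.4 and 49.6 CPM in metatarsal controls. The log2 difference was 1.48 ± 0.23 (adjusted p = 5.31e-05) at 0 MPa, 0.91 ± 0.16 (adjusted p = 1.02e-04) at 5 MPa and 0.81 ± 0.25 (adjusted p = 0.0248) at 50 MPa. The call at 50 MPa was lost without M504 (0.30, adjusted p = 0.754) and without hip cap 50 MPa replicate 1 (0.72), and its direction depends on the scaling: with library sizes alone, under which the median of all genes shifted by -0.90 on the log2 scale, the difference was -0.18 (adjusted p = 0.723).

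The sequencing runs were read from a picture in the study, and the split they give does not match the numbers of libraries per run in its methods. The run was a term in the main fit, so its estimates and adjusted p-values, above and below, rest on that reading. With library type as the only batch term, 1162 genes passed in hip caps at 5 MPa against control, in place of 4. All that follows on runs also holds only if that reading is right. By it, all 8 libraries at 5 MPa shared a run and a library type. At 0 MPa, run 1 and stranded libraries hold HC1 and HC2 against MC1. The metatarsal side is then a single library, so no count of calls is given for it. At 50 MPa the tissues share a run and a library type only through M504, and without this library 3 members passed in place of 7. The number of all genes that passed without M504 is not reported here, so this drop cannot be read as particular to the members.

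**Figure D2:**
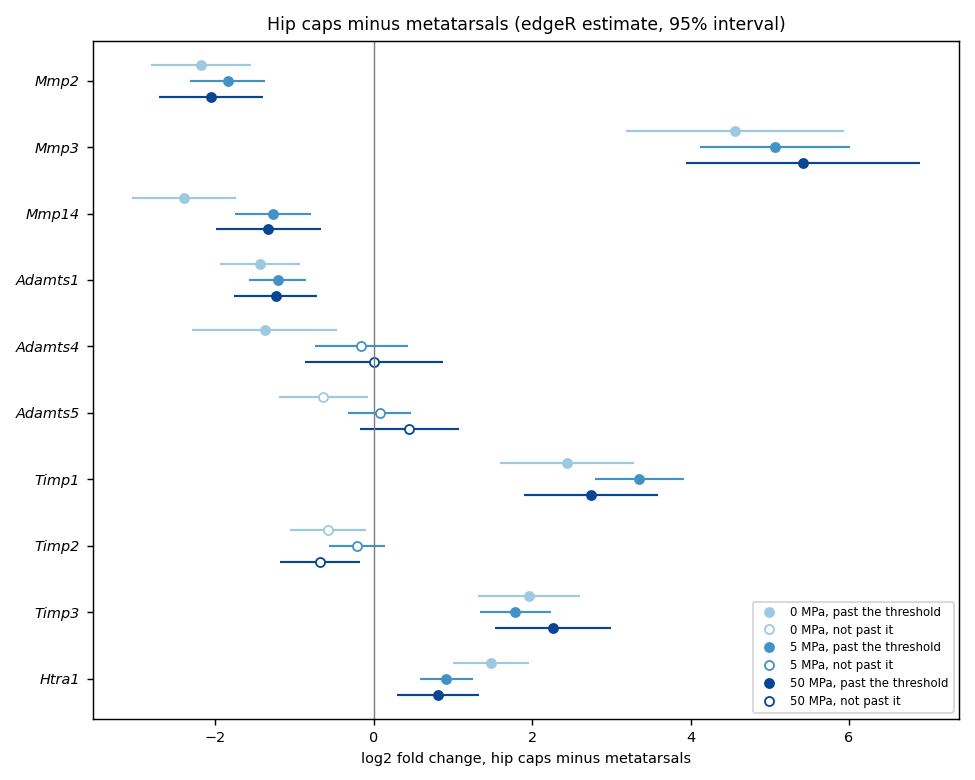
Points give the log2 fold change of each gene, hip caps minus metatarsals, at 0, 5 and 50 MPa (light to dark), and lines the 95% intervals, with filled points where the adjusted p was at most 0.05. Mmp3 lies farthest to the right (4.56 to 5.42), and Mmp2 and Mmp14 lie farthest to the left (-2.39 to -1.27).

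**Figure D3:**
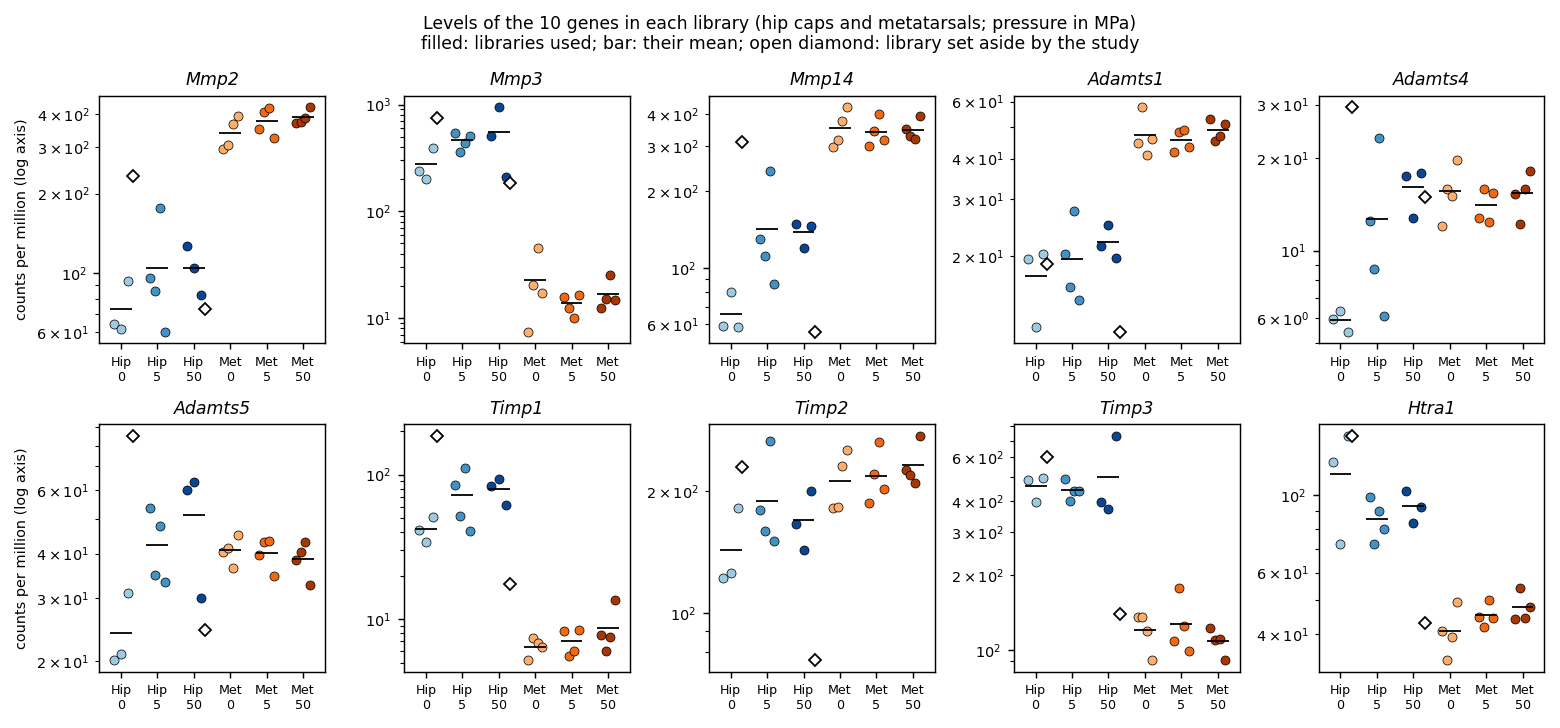
Each panel shows the CPM of a gene on a log axis in every library, with hip caps in blue and metatarsals in orange, pressures in MPa under the axis, a bar at the mean of the libraries used and open diamonds for HC4 and H502. The open diamond of the hip cap controls lies far above the filled control points for Mmp14 (310.9 against 58.6 to 80.2 CPM) and Adamts4 (29.5 against 5.43 to 6.36 CPM).

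In hip caps, no member passed the test for 5 MPa against control, where 0.0188% of all genes did. Before adjustment 3 members, Mmp14, Adamts4 and Timp1, had a p under 0.05, against 14.8% of all genes. The fitted log2 differences were positive for 7 members and negative for 3, with a median of 0.38 beside 0.01 over all genes, and no count over the members was tested.

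Mmp14 came closest at 5 MPa. It had 129.4, 111.2, 239.9 and 86.5 CPM at 5 MPa, all above the 3 controls (59.2, 80.2 and 58.6 CPM), with a log2 difference of 1.06 ± 0.37 (95% interval 0.29 to 1.82, adjusted p = 0.201). HC4, the control left out, had 310.9 CPM, above all 4. Adamts4 had 12.4, 8.72, 23.3 and 6.10 CPM at 5 MPa, of which the last lay among the controls, and differed by 1.03 ± 0.49 (adjusted p = 0.335). Adamts5 had 53.6, 34.8, 47.7 and 33.4 CPM, all above the 3 controls, which ran from 20.1 to 31.1 CPM, and differed by 0.62 ± 0.31 (adjusted p = 0.357). Mmp14 and Adamts5 were the 2 members whose groups did not overlap, both higher at 5 MPa, against 8.4% of all genes higher in this way, and with HC4 in the control group (85.4 CPM for Adamts5) no member was left.

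Timp1 had 85.2, 51.8, 111.6 and 40.9 CPM at 5 MPa and 34.2 to 50.9 CPM in controls, a log2 difference of 1.02 ± 0.43 (adjusted p = 0.281). Mmp3 had 355.7 to 542.7 CPM at 5 MPa, which overlapped the 198.7 to 395.4 CPM of the controls, and differed by -0.45 (95% interval -1.80 to 0.90) once run and library type were fitted, and by 0.73 (adjusted p = 0.328) without these terms. The remaining members lay between -0.47 (Htra1) and 0.41 (Mmp2).

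The sign of these differences changed with the controls that entered. By the same reading of the runs, the hip caps at 5 MPa were all sequenced in run 2 and the 3 controls used in run 1, so the run could be estimated only through the metatarsals, where MC1 and M504 were the run 1 libraries (with weights of 0.56 and 0.44 in an unweighted form of the contrast). HC4, which the study set aside, was the only hip cap control of run 2. Against this single library the log2 differences were -1.16 for Mmp2, -1.22 for Adamts4 and -1.01 for Adamts5, values that have no replicate on the control side. With no batch terms and the 3 controls, Mmp14 (1.10), Adamts4 (1.10) and Adamts5 (0.80) passed the test as higher, where 2027 of 21283 genes passed in either direction. With all 24 libraries, Mmp14 differed by -0.25 and Adamts5 by -0.31, and neither passed.

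At 50 MPa against control, again no member of the hip caps passed the test, where 5.18% of all genes did, and 8 members had a positive and 2 a negative difference. Before adjustment 4 members had a p under 0.05 (Mmp14, Adamts4, Adamts5 and Htra1), against 22.6% of all genes. The hip cap libraries at 50 MPa were all unstranded and of run 1, as was 1 control, HC3.

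Adamts4 had 17.5, 12.8 and 18.0 CPM at 50 MPa, all above the controls (5.98, 6.36 and 5.43 CPM), and a log2 difference of 1.28 ± 0.48 (95% interval 0.28 to 2.28, adjusted p = 0.117). Mmp14 had 148.6, 119.7 and 146.1 CPM, also above every control, and differed by 1.03 ± 0.36 (0.27 to 1.78, adjusted p = 0.0976). Adamts5 was split, with 60.3 and 63.2 CPM in replicates 1 and 3 and 30.0 CPM in replicate 4, the last within the range of the controls. It came closest to the threshold of all members, with 0.94 ± 0.29 (0.34 to 1.54, adjusted p = 0.0596), and without replicate 4 the difference was 1.19 (adjusted p = 0.00887). HC3 carried most of the control side of this contrast, with a weight of -0.76 in its unweighted form. Without it the log2 difference was 0.42 for Mmp14, 0.55 for Adamts4 and 1.63 for Adamts5 (adjusted p = 0.238), and none passed.

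Timp1 did not overlap the controls either (83.9, 92.8 and 61.6 CPM), and differed by 0.46 ± 0.39 (-0.35 to 1.27, adjusted p = 0.511), which turned to -0.27 without HC3. These 3 members without overlap, Mmp14, Adamts4 and Timp1, all higher, stand against 8.19% of all genes higher in this way, and 0 were left with all 24 libraries. Htra1 had 103.0, 83.0 and 92.5 CPM at 50 MPa, within the spread of its controls (72.4 to 147.9 CPM), and a log2 difference of -0.54 ± 0.23 (adjusted p = 0.159). Mmp3 ranged from 208.0 to 951.6 CPM at 50 MPa and differed by 0.32 (-0.92 to 1.57), and Timp3 ranged from 369.7 to 734.1 CPM and differed by 0.17 (-0.46 to 0.80).

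Calls at 50 MPa moved with the method. DESeq2 and the fit without batch terms each called the same 3 genes, Mmp14 (adjusted p = 0.0273 and 0.0278), Adamts4 (0.0361 and 0.0284) and Adamts5 (0.0213 and 0.019), as higher. Of all 21283 genes, these fits called 2455 and 850 in either direction. Within unstranded libraries of run 1, against HC3 as the only control, Mmp14 differed by 1.24 (adjusted p = 0.0985) and Adamts4 by 1.55 (adjusted p = 0.116), and no member passed. With hip caps of run 1 alone and no batch terms, an alternative chosen after seeing the data, the differences were 1.07, 1.44 and 1.10 for Mmp14, Adamts4 and Adamts5, and 0 of the 10 members passed. With all 24 libraries they were 0.06, 0.47 and 0.33.

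The level of the marker genes of other cells moved with that of several members among hip cap libraries. HC4 and hip cap 5 MPa replicate 3 (H53) had the lowest chondrocyte sums of the control and 5 MPa libraries (9086 and 21098 CPM) and the highest macrophage sums of all 12 hip cap libraries (781.8 and 684.5 CPM, against 89.4 to 316.9 CPM in the other libraries). Their sums of 8 perichondrium and fibroblast markers were 7222 and 10426 CPM, against 1504 to 4763 CPM, and those of 6 endothelial markers 232.1 and 253.6 CPM, against 49.3 to 131.9 CPM. HC4 or H53 was the highest hip cap library for Mmp2, Mmp14, Adamts1, Adamts4, Adamts5, Timp1, Timp2 and, by a narrow margin (148.1 against 147.9 CPM), Htra1. Osteoclast sums were 2217 CPM in HC4 and, among the libraries used, 136.4 to 248.2 CPM in controls, 246.8 to 738.2 CPM at 5 MPa and 254.6 to 819.5 CPM at 50 MPa. The part of these cells in the levels of the members was not tested. Without H53, the counts of members called at 50 MPa rose to 2 (Mmp14 and Adamts4), and at 5 MPa the count stayed at 0. The calls over all genes without H53 are not reported here.

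**Figure D4:**
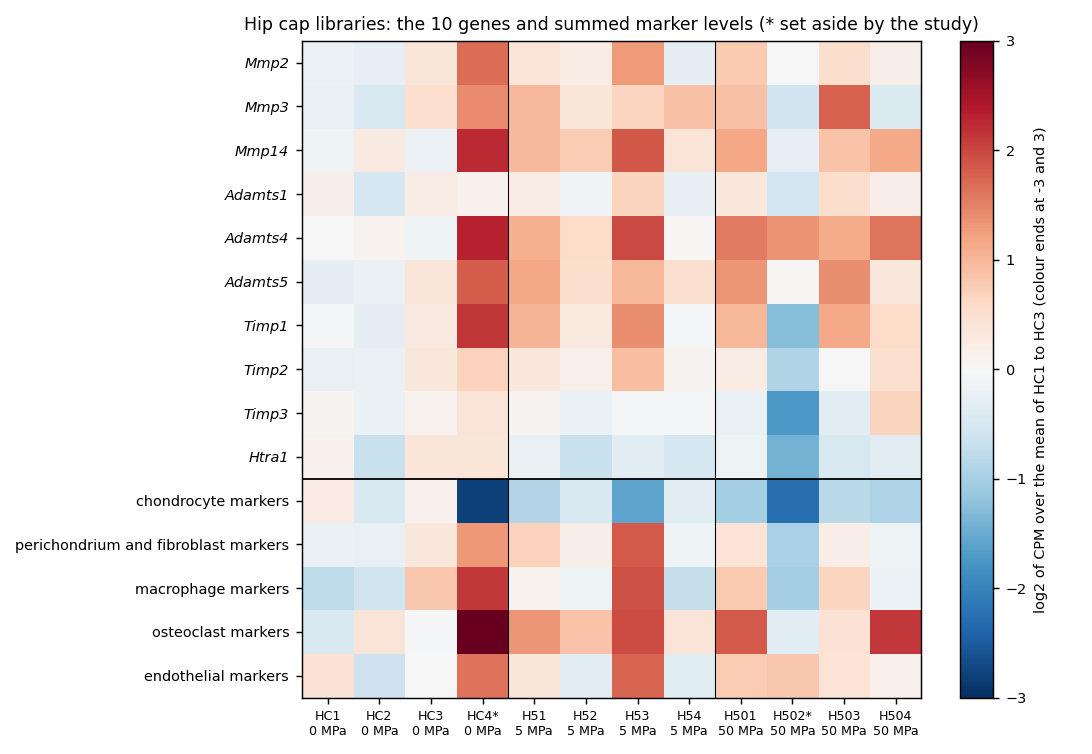
Colours give, for each of the 12 hip cap libraries, the log2 of a gene's CPM over the mean of HC1 to HC3, and below the line the same for summed marker levels, with asterisks on HC4 and H502. The columns of HC4 and H53 are red for most proteases and for macrophage, fibroblast and endothelial markers and blue for chondrocyte markers (9086 and 21098 CPM).

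In metatarsals no member passed the test at 5 or 50 MPa, and 0 of 21283 genes did at either pressure with edgeR (DESeq2 called 13 and 9 genes, none of them a member). At 5 MPa 1 member had an unadjusted p under 0.05, against 3.24% of all genes, and at 50 MPa 0 had, against 3.89%. The member was Mmp3, with 10.1 to 16.5 CPM at 5 MPa and 7.46 to 45.6 CPM in controls, a log2 difference of -0.96 (95% interval -1.81 to -0.11, adjusted p = 1), and -0.54 (-1.41 to 0.33) at 50 MPa. The other 9 members ranged from -0.19 to 0.11 under 5 MPa and from -0.15 to 0.16 under 50 MPa. The groups overlapped for all 10 members, while 2.88% and 4.48% of all genes had no overlap at 5 and 50 MPa. For Mmp14 the interval was -0.56 to 0.43 at 5 MPa and -0.54 to 0.47 at 50 MPa, and for Adamts4 -0.80 to 0.42 and -0.72 to 0.53.

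**Figure D5:**
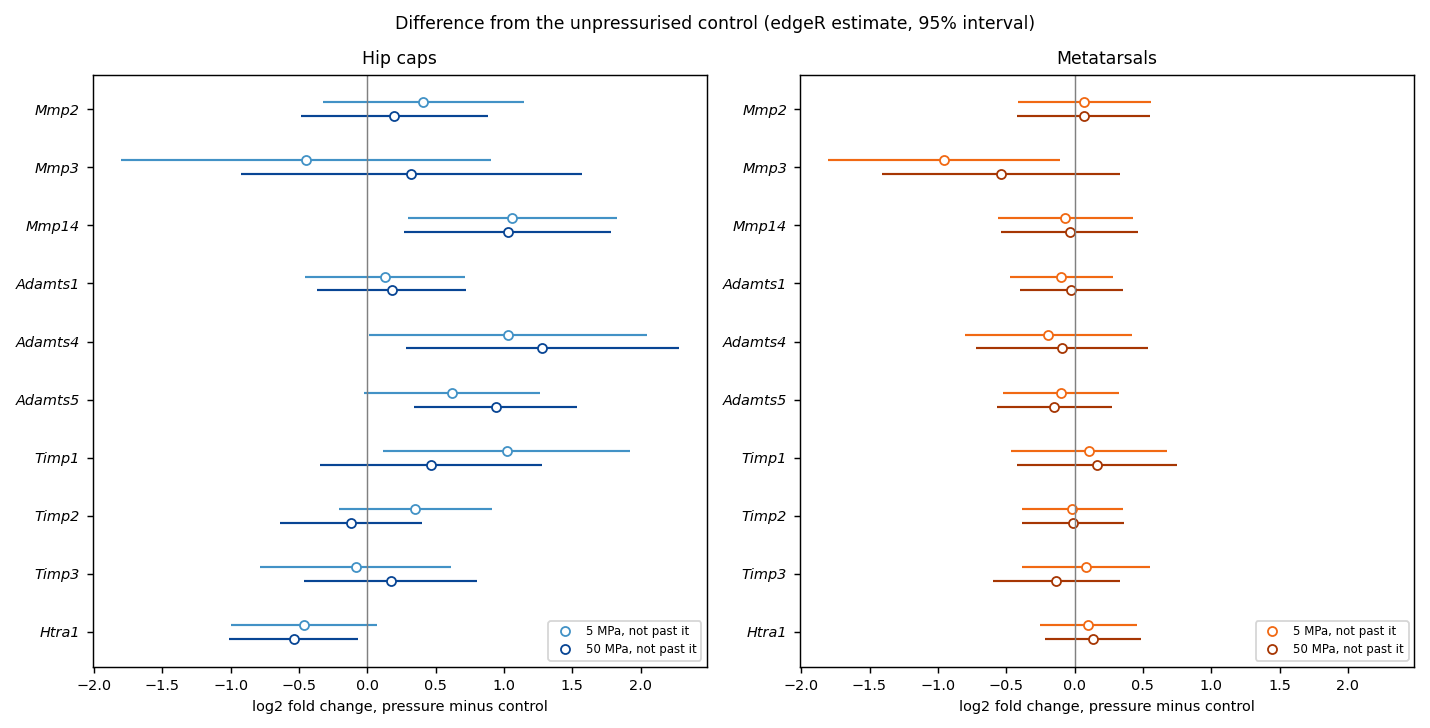
Points give the log2 fold change of each gene, pressure minus control, in hip caps (left) and metatarsals (right) at 5 and 50 MPa, with 95% intervals, and all are open because none reached an adjusted p of 0.05. The hip cap points of Mmp14 and Adamts4 lie between 1.03 and 1.28, and those of the metatarsals between -0.19 and -0.04.

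The difference between the tissues in their response was tested as an interaction, and no member passed it at 5 MPa (0.0188% of all genes did) or at 50 MPa (0.132%). Before adjustment 3 members at 5 MPa and 4 at 50 MPa had a p under 0.05, against 11.2% and 18.3% of all genes. The largest values at 50 MPa were those of Adamts4 (1.38 ± 0.51, adjusted p = 0.154), Adamts5 (1.09 ± 0.32, adjusted p = 0.091) and Mmp14 (1.06 ± 0.38, adjusted p = 0.146), and at 5 MPa those of Adamts4 (1.22 ± 0.52, adjusted p = 0.399) and Mmp14 (1.13 ± 0.39, adjusted p = 0.327). DESeq2 called 1 member at 50 MPa, Adamts5 (adjusted p = 0.0216). The hip cap comparisons at 5 and 50 MPa share their controls, and so do the interactions.

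The counts of the lists that follow stand beside 14.1% of all genes higher and 15.9% lower in hip cap controls, and beside 5.18% called in hip caps at 50 MPa. The calls at 50 MPa named below were all lost with each tissue fitted alone, where 0 of 18001 genes passed in hip caps, and with all 24 libraries 2 of 21167 genes passed. Of the other MMP genes, 14 of 20 were tested, and in the controls 4 were higher and 4 lower in hip caps. Mmp13 (collagenase 3) had 321.5 to 685.7 CPM in hip cap controls and 6.64 to 36.1 CPM in metatarsal controls, a log2 difference of 5.50 (adjusted p = 2.35e-05), and Mmp9 (gelatinase B, abundant in osteoclasts) differed by 3.81. Of those lower in hip caps, Mmp19 and Mmp15 differed most, with -1.74 and -1.11. Under pressure 1 of the 14 passed, Mmp12 (macrophage elastase) in hip caps at 50 MPa, with a log2 difference of 2.66 and 32.5 to 181.1 CPM against 10.6 to 30.1 CPM in controls.

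The other ADAMTS proteases mostly stood lower in hip caps, as 8 of 15 tested fell below metatarsals at 0 MPa and 2 rose above them. The lowest were Adamts15 (-5.43), a versican- and aggrecan-cleaving relative of Adamts1, and Adamts19 (-3.73), and the highest were Adamts3 (1.76), which processes procollagen II, and Adamts6 (1.46). At 50 MPa Adamts3 was the single gene of the list past the threshold in hip caps, lower by -1.19 than the controls (adjusted p = 0.0434). Of 6 ADAMTS-like proteins, which lack the protease domain, 5 were lower in hip cap controls and Adamtsl2 was higher (5.35).

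Other inhibitors were higher in hip caps where they differed, in 3 of 7 at 0 MPa, with Cst3 (cystatin C) at 4.59. Cst3 was lower at 50 MPa than in the hip cap controls, by -0.99 (adjusted p = 0.0379). Of the proprotein convertases and clearance receptors, Pcsk6, which activates ADAMTS4, had 1050 to 1391 CPM in hip cap controls and 8.04 to 22.1 CPM in metatarsal controls (6.93), Sdc4 differed by 2.11 and Pcsk5 by -2.68, and none of the 7 passed under pressure. Of 18 other matrix proteases tested, 6 were higher and 3 lower in hip cap controls, from Htra4 (5.07) and Fap (1.77) down to Adam12 (-2.10) and Tll1 (-2.32), and Adam10 was the single one past the threshold at 50 MPa in hip caps (0.94, adjusted p = 0.0303).

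Of the matrix substrates, 9 of 10 were higher in hip cap controls, led by Comp (5.86) and Acan (4.81), and versican (Vcan) was lower (-3.82). In hip caps at 50 MPa, Comp was lower by -1.35 (adjusted p = 0.0455) and Vcan higher by 1.51 (adjusted p = 0.0195) than in controls, and at 5 MPa none of the 10 passed. Comp is also among the 10 chondrocyte markers. Their sum in the hip caps used was 45738.5 to 75178.4 CPM in controls, 21098 to 50593.8 CPM at 5 MPa and 31390.7 to 35822.2 CPM at 50 MPa. The part of this shift in the call of Comp was not tested. Among 19 of 21 tested genes of signals that induce these proteases, Epas1 (3.89) and Runx2 (2.70) were the highest and Jun (-2.37) and Il1r1 (-1.65) the lowest of those that passed the test between the controls. Il1a, which codes for interleukin 1 alpha, was the only gene of that list past the threshold at 50 MPa in hip caps (4.66, adjusted p = 0.0485), with 0 to 0.80 CPM in controls and 2.17 to 7.21 CPM at 50 MPa. Its counts were 0 to 5 in these controls and 7 to 104 at 50 MPa, so the size of this difference rests on very low counts.

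Some pairs of members varied together from library to library within the tissues, and others did not. With log2 CPM centred in each tissue, Mmp14 and Adamts4 had the highest Pearson correlation of any pair of members, 0.91 over 22 libraries (0.95 in hip caps and 0.52 in metatarsals), followed by Mmp2 with Timp2 (0.77) and Mmp2 with Mmp14 (0.76). The lowest were Mmp3 with Timp3 (-0.36), Timp1 with Timp3 (-0.29) and Mmp14 with Htra1 (-0.26), and Adamts5 with Timp1 had 0.88 in hip caps and -0.72 in metatarsals. These values are descriptions over libraries that share runs, library types and the cell mixtures given above. They were centred by tissue and not by group, so differences between the pressure groups enter them as well. Among 14185 protein-coding genes ranked by the same measure, the most alike were Dtx4 (0.95) and Spry1 (0.93) for Mmp14, Spry1 (0.92) and Axl (0.90) for Adamts4, and Lhfpl2 and Ampd3 (0.86 each) for Adamts5, of which Lhfpl2 had 0.92 in hip caps and -0.20 in metatarsals. For Mmp2 they were Notch4 (0.94) and Sh3pxd2b (0.93), for Adamts1 Jun (0.89) and Pgs1 (0.86), and for Mmp3 Chil1 (0.82) and Arntl2 (0.74). The inhibitors were most like Pcolce and Ocstamp (Timp1, 0.86 each), Psap and Cotl1 (Timp2, 0.95 and 0.91) and Ezr and Klf2 (Timp3, 0.85 and 0.84), and Htra1 was most like Ilvbl (0.88) and Ric8a (0.86). Some of these values were lower in metatarsals alone, as for Spry1 with Mmp14 (0.48) and Adamts4 (0.51), Axl with Adamts4 (0.35) and Pgs1 with Adamts1 (0.41). Others were high in both tissues, as for Psap with Timp2 (0.97 in hip caps and 0.91 in metatarsals).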

How the data were processed

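RNA-seq was made from 24 samples, hip caps and metatarsals at 0, 5 and 50 MPa with 4 per group. The authors trimmed reads with Trim Galore 0.6.5, quantified transcripts with kallisto (version not given in the sources used here) and summed them to genes, and the labels name GRCm39. The deposited values are estimated counts per gene, which need not be whole and are not normalized, and they were rounded to whole numbers here. Ribosomal RNA had been depleted, and the study notes low RNA integrity. It set 2 libraries aside, which was followed here. Library type came from the labels; the sequencing run was read from a picture in the study, and its split does not match the numbers of libraries per run in the methods.

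Counts were scaled by TMM, filtered with filterByExpr (21283 of 52178 genes kept) and tested with edgeR 4.0.16 in R 4.3.3 (limma 3.58.1), using the robust quasi-likelihood test with terms for group, run and library type and 14 residual degrees of freedom. P-values were two-sided and adjusted over all 21283 genes. Levels on the log2 scale used a prior count of 2. Alternatives were DESeq2 1.42.0, other scalings and filters, other batch terms, all 24 libraries, a GC correction, a replicate block and leaving out each of 22 libraries. An alternative with hip caps of run 1 alone was added after seeing the data. The scripts were tested on simulated data. Transcript lengths, positions and shared words of 31 bases came from GRCm38, whose coordinates were not converted.

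The named genes are the 10 members, from each pathway list and comparison the genes past the threshold with the 2 highest and 2 lowest log2 fold changes and a mean of at least 1 CPM, and the 2 protein-coding genes most correlated with each member. Mmp10 is named for its shared sequence and Ctsk because the study reported it. Some genes that this rule allows are not reported here. The members and lists were chosen with earlier results of these data known. Same-numbered samples did not vary together: the correlation of their deviations from group means ran from -0.13 to 0.10 over 8 pairs of hip caps and from -0.12 to 0.16 over 12 pairs of metatarsals.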

Additional observations from a re-analysis of the deposited data

Results flagged for a closer look

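Of 60 groups of 4 libraries tested for a library far from the rest, 2 held one, and chance gives about 1 in 20. Adamts1 in hip cap control replicate 2 had 12.09 CPM against 19.00 to 20.39 CPM in the other 3 controls, so that the gap took 0.865 of the whole range. Adamts4 in hip cap control replicate 4, which the study set aside, had 29.49 CPM against 5.43 to 6.365 CPM, a gap of 0.907 of the range. Hip cap 50 MPa replicate 2, also set aside and thus outside the comparisons, had 15.0 CPM of Adamts4, above the 3 controls used (5.43 to 6.365 CPM) and below the control set aside.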

How the results depend on the processing

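Between the tissues, the number of members called ran from 7 to 10 at 0 MPa, 7 to 8 at 5 MPa and 3 to 8 at 50 MPa when single libraries were left out, the 3 being without metatarsal 50 MPa replicate 4. For hip caps it ran from 0 to 0 at 5 MPa and from 0 to 2 at 50 MPa, for metatarsals from 0 to 0, and for the interactions from 0 to 0 and from 0 to 2. The calls over all genes in these fits are not reported here, so a shift in these counts cannot be told from a shift over all genes. In hip caps at 5 MPa, 3 members were higher with no batch terms, 3 with library type as the only batch term, and 3 were lower within a single run and library type. There HC4, set aside by the study, is the only control and is assumed to vary like the other groups, so this count has no replicate behind its control side. The values of opposite sign were -1.16 (Mmp2), -1.22 (Adamts4) and -1.01 (Adamts5). In hip caps at 50 MPa, 3 members passed with DESeq2, 1 with at least 10 counts in every library and 3 with no batch terms, and DESeq2 called 1 in the interaction. With all 24 libraries, members without overlap went from 2 and 3 to 0 at 5 and 50 MPa. With library sizes alone, Htra1 turned to -0.18 between the tissues at 50 MPa. Without division by length, Mmp3 took 27.8% in hip caps (39.6% with it) and Mmp2 29.9% in metatarsals (32.4%). The causes were not tested.

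Over all genes, calls in hip caps at 5 MPa went from 4 to 577 with DESeq2, 2027 with no batch terms and 4657 within a run. At 50 MPa they went from 1102 to 2455 with DESeq2, 44 with library sizes alone, 54 with the GC trend removed, 2 with all 24 libraries and 0 with each tissue fitted alone. The interaction at 50 MPa went from 28 to 1349 with DESeq2. With the replicate block, members called stayed at 8, 7 and 7 between tissues and 0 under pressure, while calls over all genes rose to 176 in hip caps at 5 MPa and 199 in the interaction at 50 MPa. The sources used here do not say that samples of the same number are paired, and the deviations of such samples from their group means did not vary together. The interactions could not be computed within a single run and library type. Depth limits Adamts4 most, with as few as 22 counts in a control.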
